A study of Mus musculus with 5 samples.

Results

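Tlx3-positive granule progenitors without Eomes were examined in single-cell RNA sequencing of the developing mouse cerebellum deposited with a study of where Group 3 and Group 4 medulloblastoma begin. A cell was taken as a member when it held at least 1 UMI (unique molecular identifier, which counts RNA molecules) of Atoh1, Barhl1 and Tlx3 and no UMI of Eomes, so the members were chosen by the measured values of these 4 genes. In the 4 libraries titled RL (rhombic lip), 401 of 4311 cells met the rule, and the whole series held 6987 cells. Cells with Atoh1 and Barhl1 but with no UMI of Tlx3 or Eomes (1263 cells, called Tlx3-negative) served as the comparison, and cells with Atoh1, Barhl1 and Eomes at any Tlx3 level (598 cells, called Eomes-positive) as the most similar other population.

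The study deposited 2 libraries titled RL e13, 2 titled RL e14 and 1 titled EomesCreER e16, where the numbers are embryonic days (13, 14 and 16). All were prepared from cerebellar tissue, and the labels give no strain, sex or treatment and no meaning for the suffix UT in the RL titles. The age tag of RL e13 replicate 2 reads e14, against the e13 of its title, and the title was followed. The title of the e16 library names a Cre line at the Eomes locus, and the labels do not say whether its cells were sorted. The labels do not tie replicates to different animals; the spread between libraries that p-values rest on may therefore be technical.

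The rhombic lip is the dorsal germinal zone of the hindbrain from which the glutamatergic neurons of the cerebellum arise. Granule cell progenitors leave it under the transcription factor Atoh1, with Barhl1 downstream of Atoh1, and then divide in the external granule layer. Cells that turn on Eomes give rise to unipolar brush cells. Tlx3 is a homeobox transcription factor best known as a selector of glutamatergic over GABAergic fate in the dorsal spinal cord. Ntf3 encodes a neurotrophin that binds the receptor Ntrk3, Insm2 a zinc-finger factor related to Insm1, and Efna3 an ephrin ligand anchored to the membrane.

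The upstream sequences of the 4 genes that mark the population are shown because their transcripts were found together in single cells. Each is the run of 250 bases before the most upstream start in the RefSeq promoter table (GRCm38.p6), written 5′ to 3′ on the gene's strand. The E-box hexamer CAGATG, or CATCTG on the other strand, is in capitals; it belongs to the class of sites that basic helix-loop-helix factors such as Atoh1 bind.
Tlx3, chr11:33203589-33203838, minus strand: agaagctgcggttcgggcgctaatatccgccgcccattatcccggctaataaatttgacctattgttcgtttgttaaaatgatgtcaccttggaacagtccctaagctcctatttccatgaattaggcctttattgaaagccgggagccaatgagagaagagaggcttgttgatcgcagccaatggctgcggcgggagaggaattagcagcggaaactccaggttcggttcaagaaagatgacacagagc
Ntf3, chr6:126166745-126166994, minus strand: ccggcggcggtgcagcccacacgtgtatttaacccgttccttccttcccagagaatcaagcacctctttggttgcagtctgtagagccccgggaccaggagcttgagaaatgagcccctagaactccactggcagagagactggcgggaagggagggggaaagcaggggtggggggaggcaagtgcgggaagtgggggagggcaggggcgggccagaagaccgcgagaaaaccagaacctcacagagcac
Insm2, chr12:55598667-55598916, plus strand: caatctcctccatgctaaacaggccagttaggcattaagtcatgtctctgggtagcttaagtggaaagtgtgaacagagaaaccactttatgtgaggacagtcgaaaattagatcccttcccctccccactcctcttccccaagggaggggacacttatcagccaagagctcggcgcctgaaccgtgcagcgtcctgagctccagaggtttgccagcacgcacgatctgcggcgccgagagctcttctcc
Efna3, chr3:89322940-89323189, minus strand: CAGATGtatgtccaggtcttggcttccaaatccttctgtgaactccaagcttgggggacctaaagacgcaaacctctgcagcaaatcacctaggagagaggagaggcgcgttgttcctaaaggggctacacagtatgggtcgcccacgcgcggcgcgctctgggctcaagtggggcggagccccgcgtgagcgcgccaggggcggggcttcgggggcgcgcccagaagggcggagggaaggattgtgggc
Of these 4 windows, only that of Efna3 held the hexamer, with 1 match at its 5′ end. The choice of start decides this: the table's other start of Ntf3 has 1 match in its window, and the other start of Efna3 has 0. In the whole table, 4745 of 32851 windows of that length (14.4%) held it. The match is a description of the letters.

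The share of Tlx3-positive cells among Atoh1 and Barhl1 cells without Eomes differed widely between libraries. It was 1.92% in RL e13 replicate 1 (1 of 52 cells, 95% Wilson interval 0.340 to 10.1%) and 9.89% in RL e13 replicate 2 (75 of 758 cells, 7.97 to 12.2%). It was 33.9% in RL e14 replicate 1 (170 of 501 cells, 29.9 to 38.2%) and 43.9% in RL e14 replicate 2 (155 of 353 cells, 38.8 to 49.1%). Both e14 libraries lay above both e13 libraries, and no interval of one age reached the other. The mean was 38.9% ± 7.06 (SD, n = 2) at e14 and 5.91% ± 5.64 (SD, n = 2) at e13, a difference of 33.0 percentage points (exact two-sided permutation test, p = 0.33, the smallest p that 2 against 2 libraries allow). Intervals cover counting error only.

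The order of the libraries was the same at equal depth. After each cell was thinned to 10000 UMIs, the shares were 2.27%, 8.45%, 31.8% and 39.1% in the same library order. Cells with fewer UMIs were left out and the gate was applied again to the thinned counts, so cells could change population. Tlx3-negative cells of RL e14 replicate 2 went from 198 to 204, and its Eomes-positive cells from 115 to 69. All results in thinned cells carry this regrouping as well as the equal depth. At a threshold of 2 or more Tlx3 UMIs, none of the 52 cells of RL e13 replicate 1 passed, which allows a share of up to 5.77%, and the other 3 libraries gave 5.54%, 29.1% and 38.2%. With RL e13 replicate 2 counted as e14, as its tag has it, the difference was 27.3 points. The mean was then 29.2% ± 17.5 (SD, n = 3) at e14, against 1.92% in the 1 library left at e13, which allows no spread. Sox2 cells without Atoh1 and Barhl1, a population that served as background, held a Tlx3 UMI in 1 of 452 cells (0.221%) of RL e13 replicate 2, 2 of 147 (1.36%) of RL e14 replicate 1 and 9 of 108 (8.33%) of RL e14 replicate 2. The median depth of those background cells was 15404, 14935 and 14551 UMIs, and that of the Tlx3-positive cells 19593, 16540 and 22269 UMIs.

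The number of Tlx3 molecules per cell followed the same order. The median was 2 Tlx3 UMIs per member in RL e13 replicate 2, 7 in RL e14 replicate 1 and 11 in RL e14 replicate 2, with maxima of 14, 45 and 56. Members at the edge of the rule, with a single Tlx3 UMI, made up 33 of 75, 24 of 170 and 20 of 155 cells, and 78 of all 401 (19.5%). Members with 10 or more Tlx3 UMIs numbered 2, 54 and 82. Members were thus both rarer and lower in Tlx3 per cell in RL e13 replicate 2 than in either RL e14 library.

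**Figure D1:**
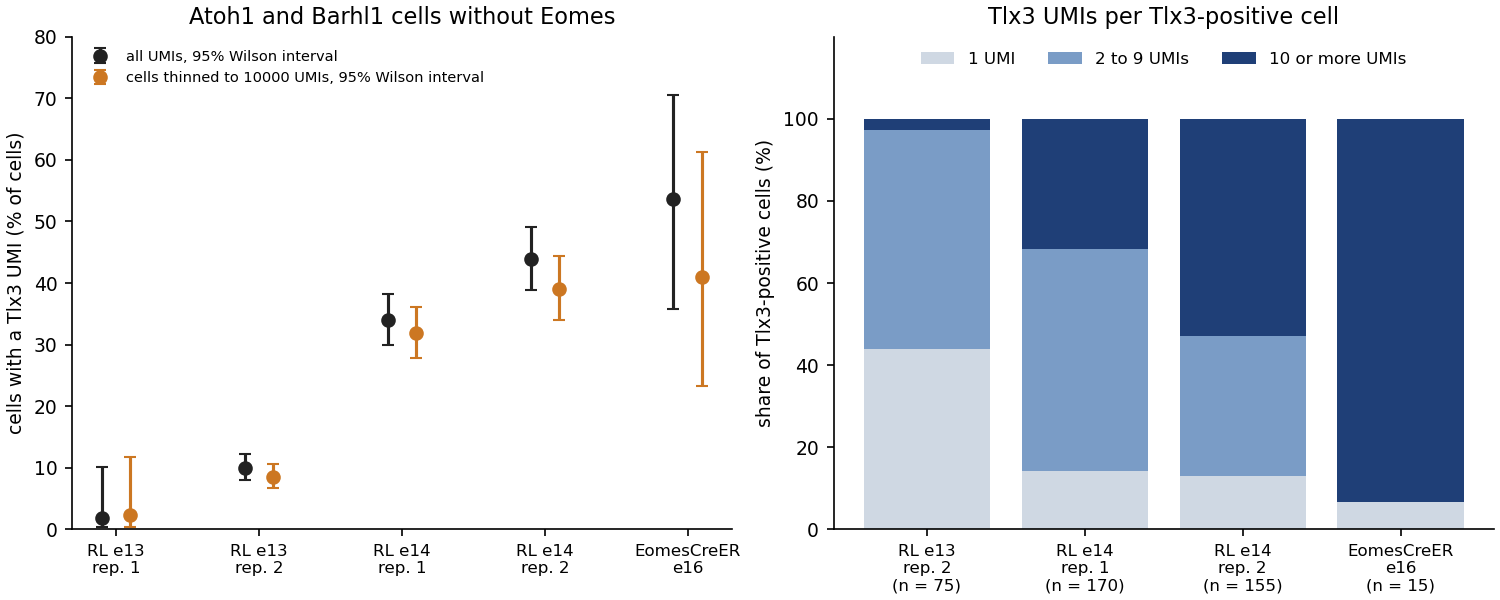
Left, share of cells with a Tlx3 UMI among Atoh1 and Barhl1 cells without Eomes in each library, as a percentage, with 95% Wilson intervals, for all UMIs and after thinning to 10000 UMIs per cell. Right, share of Tlx3-positive cells with 1, 2 to 9, or 10 or more Tlx3 UMIs, from 75 cells in RL e13 replicate 2, 170 and 155 in the RL e14 libraries and 15 in the EomesCreER e16 library; cells with 10 or more UMIs were 2 of 75 at e13 and 82 of 155 in RL e14 replicate 2.

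The label was checked against its 4 markers and against granule lineage genes. Of the 401 members, 77 (19.2%) held no UMI of Ntf3, Insm2 or Efna3, 109 (27.2%) held UMIs of 1 of these genes, 135 (33.7%) of 2 and 80 of all 3. Of the 1263 Tlx3-negative cells, 796 (63.0%) held none and 15 (1.19%) all 3. Since Ntf3, Insm2 and Efna3 were named with the population from these data, their levels are given as a description with no test.

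Levels are given below as CPM (mean over cells of UMIs per 1000000 UMIs of the cell), always in the order RL e13 replicate 2, RL e14 replicate 1 and RL e14 replicate 2, the 3 libraries with 20 or more cells of each population; RL e13 replicate 1 had 1 member and entered no comparison. Ntf3 stood at 44.9, 141 and 186 CPM in the Tlx3-positive cells and at 6.51, 6.36 and 12.6 CPM in the Tlx3-negative cells. Insm2 stood at 23.2, 61.6 and 79.8 CPM against 4.81, 11.8 and 28.8 CPM. Ntf3 did not overlap between the populations; for Insm2, the e13 value of the Tlx3-positive cells lay below the highest Tlx3-negative value. Efna3 was the least selective of the markers, with 54.5, 36.3 and 50.9 CPM against 28.2, 27.3 and 30.8 CPM.

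A UMI of Ntf3 was found in 36.0%, 68.2% and 71.0% of the Tlx3-positive cells and in 4.83%, 5.14% and 11.6% of the Tlx3-negative cells. Insm2 was found in 28.0%, 45.3% and 56.1% against 6.0%, 9.97% and 22.7%, and Efna3 in 44.0%, 35.3% and 56.1% against 30.3%, 27.8% and 31.8%. In the Sox2 background cells of the 3 libraries, none of 452, 147 and 108 cells held a UMI of Ntf3 or Insm2. After thinning to 10000 UMIs, Ntf3 was found in 30.2%, 58.2% and 59.5% of Tlx3-positive and 3.81%, 4.27% and 8.82% of Tlx3-negative cells. Insm2 was then found in 19.0%, 32.7% and 49.6% against 3.07%, 8.54% and 15.2%, and Efna3 in 28.6%, 29.4% and 35.9% against 22.3%, 20.1% and 21.1%. Each share was higher in the Tlx3-positive cells of its library, with the smallest gaps for Efna3.

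Among the genes of the gate, Atoh1 stood at 388, 377 and 319 CPM in the Tlx3-positive cells and at 449, 440 and 438 CPM in the Tlx3-negative cells. Barhl1 stood at 485, 449 and 419 CPM against 400, 446 and 471 CPM. The rule required a UMI of both genes in every cell of both populations, so their presence is no check of the label. Atoh1 was lower in the Tlx3-positive cells of each library, and Barhl1 was in no fixed order. Median depth was 19593, 16540 and 22269 UMIs in Tlx3-positive and 19022, 16316 and 21266 UMIs in Tlx3-negative cells.

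Genes outside the gate were compared between Tlx3-positive and Tlx3-negative cells with limma on log2(CPM + 5), with the library as a block. Of 8131 genes tested, 330 were higher in the Tlx3-positive cells (4.06%) and 314 lower (3.86%), 7.92% in all, at an adjusted p under 0.05. Among them, 328 of the higher and 313 of the lower genes had the same direction in all 3 libraries, against 3227 of all 8131 genes tested. A call in this fit itself favours genes with the same direction in every library, so this count adds no support. For 1168 of all 8131 genes tested, the library values of both populations did not overlap. Among the called genes this held for 255 of the 330 higher and 246 of the 314 lower ones. The difference was 1 or more on the log2 scale for 85 genes. Of the fits that left out 1 library, that without RL e14 replicate 2 gave the smallest counts, 181 genes higher and 178 lower, and without RL e14 replicate 1 221 were higher and 209 lower. Without the library block 68 were higher and 83 lower, and in cells thinned to 10000 UMIs 194 and 163. Of the genes named below as higher or lower than in Tlx3-negative cells, Inhbb, Otx2, Notch1, Dll1, Efna4, Efna5, Ebf3, Nfib, Sema6a, Cbfa2t2, Cbfa2t3 and Dusp1 did not pass after thinning.

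Among the genes tested, the highest difference was that of Fgf8, a secreted fibroblast growth factor that patterns the midbrain and hindbrain. Its level was 11.5, 50.8 and 59.1 CPM in the Tlx3-positive cells and 1.37, 0.226 and 1.94 CPM in the Tlx3-negative cells (log2 difference 2.67, SE 0.31, adjusted p = 0.000257). The Tlx3-negative values rested on 18, 1 and 7 UMIs in all, and Fgf8 passed the filter on low levels only through the Tlx3-positive cells. The same holds for Dapl1, Sept4, Inhbb and Cdkn1a, and, through the Tlx3-negative cells, for Msx3, Epha4, Cyp26b1, Scube2, Abcb9 and Pdzrn4: the lower population averaged under 10 CPM. For Fgf8, no Tlx3-negative library reached the lowest Tlx3-positive one. Inhbb, a subunit of activin and inhibin, stood at 16.1, 24.8 and 33.8 CPM against 7.49, 3.07 and 8.25 CPM (adjusted p = 0.000836; 0.0819 in thinned cells).

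The 10 genes with the highest differences also held Olfm1, Dapl1, Ppp2r2c, Sept4, Gap43, Ephb2 and Stmn2. Gap43, a growth cone phosphoprotein, stood at 1514, 1201 and 1170 CPM in the Tlx3-positive cells and at 490, 491 and 453 CPM in the Tlx3-negative cells (log2 difference 1.42, SE 0.055, adjusted p = 1.63e-07). Olfm1, a secreted olfactomedin of neurons, stood at 174, 244 and 265 CPM against 49.2, 44.7 and 45.0 CPM (log2 difference 2.16, adjusted p = 7.67e-07). The groups of both genes were far apart in all 3 libraries. Stmn2, a tubulin-binding protein of growing axons, was higher by 1.35 and Dcx, a microtubule-binding protein of migrating neurons, by 1.18 on the log2 scale.

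Of the 14 neuronal differentiation genes tested, 9 were higher and none lower, with a median log2 difference of 0.33 beside -0.013 over all genes; 12 of the 14 had an unadjusted p under 0.05. The 9 were Gap43, Stmn2, Dcx, Rbfox3, Nrn1, Stmn3, Elavl3, Map1b and Tubb3, while Mapt, Map2, Elavl4, Ina and Nefl did not pass. Of 12 granule neuron genes tested, 5 were higher and 3 lower, with a median log2 difference of 0.12. Rbfox3, also counted among the 9, was higher (57.1, 41.3 and 52.2 against 22.7, 21.4 and 17.8 CPM). Nfib (788, 807 and 811 against 937, 925 and 946.5 CPM) and Sema6a (26.2, 11.5 and 9.59 against 32.3, 20.7 and 18.6 CPM) were lower. Sema6a did not pass without RL e14 replicate 1 or without RL e14 replicate 2. Among 14 early differentiation factors, Neurod1, a helix-loop-helix factor of granule and brush cell differentiation, stood at 77.1, 40.9 and 22.5 CPM against 20.2, 12.6 and 12.5 CPM (log2 difference 1.25, adjusted p = 0.000742). Ebf1, Neurod2 and Sox4 were higher too, and Ebf2, Ebf3 and Sox11 were lower; Ebf3 passed in no fit that left out 1 library (adjusted p = 0.0504 to 0.178). Insm1 did not pass (561, 570 and 629 against 525, 544 and 593 CPM, adjusted p = 0.268).

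**Figure D2:**
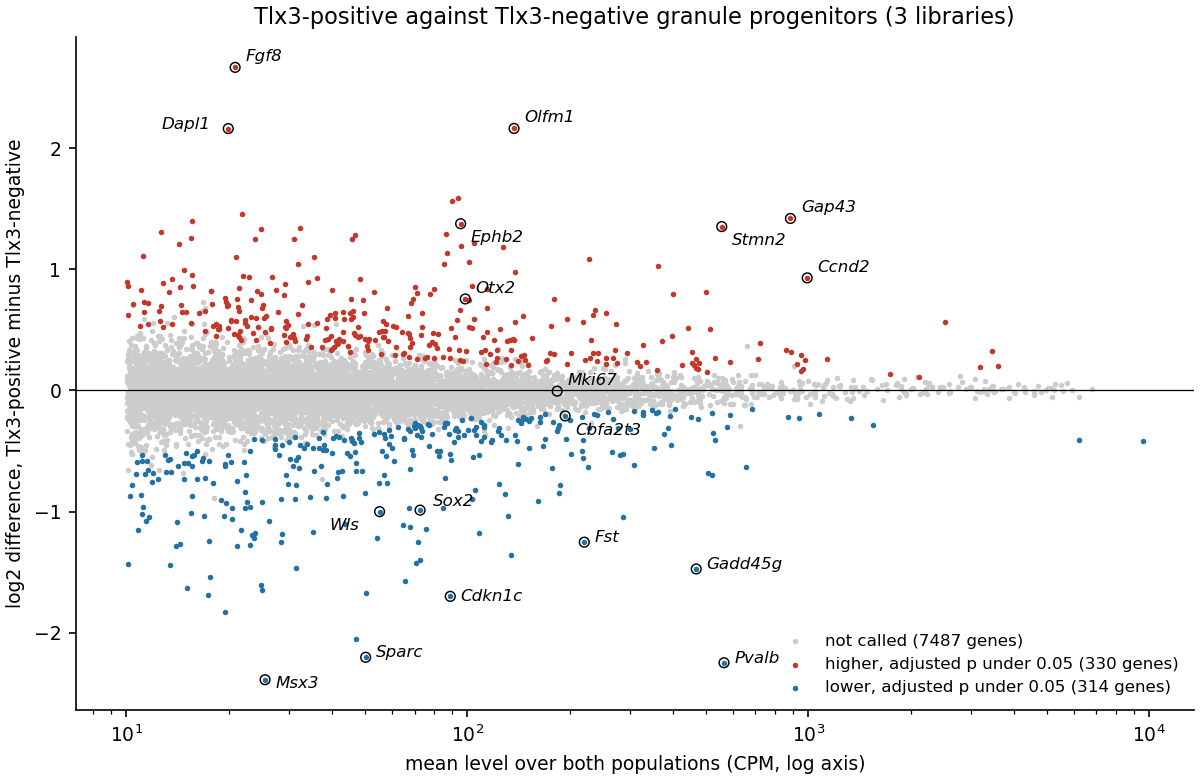
Each point is 1 of the 8131 genes tested; the horizontal axis is the mean level of both populations in CPM on a log axis and the vertical axis the log2 difference, Tlx3-positive minus Tlx3-negative, over 3 libraries. Red points (330 genes) were higher and blue points (314 genes) lower at an adjusted p under 0.05; Fgf8 (2.67) and Msx3 (-2.39) lie at the ends and Mki67 near 0.

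The proliferation genes gave no calls. None of the 15 S phase genes and none of the 15 G2 and M phase genes passed in limma, with 1 and 0 of them at an unadjusted p under 0.05 and medians of -0.025 and -0.023. Mki67, the marker of cycling cells, stood at 175, 164 and 209 CPM in the Tlx3-positive and 223, 166 and 164 CPM in the Tlx3-negative cells, with overlapping groups (log2 difference -0.0057, SE 0.098, adjusted p = 0.984). A Mki67 UMI was found in 50.7%, 47.1% and 49.7% of Tlx3-positive and 47.4%, 47.1% and 46.0% of Tlx3-negative cells. Restricted to cells without Mki67 and Top2a UMIs, 265 genes were higher and 237 lower, of which 212 and 203 were also called among all cells.

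Genes that govern the cell cycle outside these lists did differ. Ccnd2, a D-type cyclin that hedgehog signalling induces in granule progenitors, was higher at 1237, 1529 and 1137 against 581, 842 and 631 CPM (log2 difference 0.93, adjusted p = 7.02e-07). Its paralog Ccnd1 was lower at 185, 238 and 264 against 270, 375 and 355 CPM (log2 difference -0.53, adjusted p = 7.86e-05). The 2 cyclins thus moved in opposite directions in each library. Of 9 cell cycle exit genes, Cdkn1a was higher, and Cdkn1c, Gadd45g and Btg1 were lower; Cdkn1c, an inhibitor of cyclin-dependent kinases, stood at 47.1, 35.9 and 35.3 against 134, 128 and 155 CPM. Of 11 hedgehog genes tested, Ccnd2 and Gas1, a co-receptor of sonic hedgehog, were higher and Ccnd1 lower, and Ptch1, the receptor and a target of the pathway, did not pass (24.6, 40.0 and 50.8 against 35.2, 34.5 and 46.2 CPM, adjusted p = 0.903).

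Genes of the rhombic lip and of early progenitors were among those lower in the Tlx3-positive cells. Msx3, a homeobox gene of the dorsal neural tube, stood at 3.11, 3.13 and 8.82 CPM against 53.8, 43.5 and 40.7 CPM (log2 difference -2.39, SE 0.19, adjusted p = 1.23e-05). Wls, the Wnt cargo receptor that marks the rhombic lip interior, stood at 47.5, 30.1 and 27.0 against 105, 68.6 and 53.2 CPM (log2 difference -1.0, adjusted p = 2.44e-05). Sox2, a progenitor factor, stood at 45.9, 51.3 and 43.6 against 92.2, 115 and 87.9 CPM (log2 difference -0.99, adjusted p = 9.38e-06). All 3 genes were lower in every library without overlap. Of the 7 rhombic lip genes tested these 3 were lower, Pax6 was higher and 3 did not pass; the list median was -0.89.

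Of 8 radial glia genes tested, Fabp7, Nes and Notch1 were lower and Ptn, a secreted heparin-binding growth factor, was higher (3724, 2751 and 2586 against 2061, 1992 and 1993 CPM). Notch1 did not pass without RL e14 replicate 2 (adjusted p = 0.0761). Of 9 Notch genes tested, Dll1, a Notch ligand, and Notch1 were lower and none higher, with 4 at an unadjusted p under 0.05. Of 8 Wnt genes, Sp5 was higher and Fzd10 and Nkd1 were lower.

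Pvalb, the calcium-binding protein parvalbumin, had the smallest p-value of all genes tested. It stood at 171, 154 and 263 CPM in the Tlx3-positive cells and at 822, 854 and 1131 CPM in the Tlx3-negative cells (log2 difference -2.25, SE 0.059, adjusted p = 4.31e-09). Fst, which encodes the activin antagonist follistatin, stood at 138, 121 and 123 against 373, 300 and 266 CPM (log2 difference -1.25, adjusted p = 7.02e-07). Gadd45g, a growth arrest gene, stood at 306, 197 and 244 against 732, 654 and 682 CPM (log2 difference -1.47, adjusted p = 7.02e-07). For these 3 genes the highest Tlx3-positive library lay below the lowest Tlx3-negative one. The 10 genes with the lowest log2 differences, -2.39 to -1.63, were Msx3, Pvalb, Sparc, Sparcl1, Cyp26b1, Cdkn1c, Scube2, Prss23, Abcb9 and Pdzrn4.

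Ephrins and their receptors were split. Ephb2, a receptor of B-type ephrins, stood at 102, 151 and 170 CPM in the Tlx3-positive and 54.1, 44.8 and 51.7 CPM in the Tlx3-negative cells (log2 difference 1.38, adjusted p = 4.86e-05). Epha4, a receptor of both ephrin classes, went the other way with 6.31, 8.07 and 4.97 against 35.9, 30.5 and 19.9 CPM (log2 difference -1.54, adjusted p = 4.78e-05). Neither gene overlapped between the populations. Of 11 members tested, which leave out Efna3, Ephb2 and Efna4 were higher and Epha4, Efna5, Epha5 and Efnb1 lower; Efna4 did not pass without RL e14 replicate 1 (adjusted p = 0.0735) or without RL e14 replicate 2 (0.0577), and Efna5 not without RL e14 replicate 1 (0.131).

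Of 13 axon guidance and migration genes, Plxnb2, a semaphorin receptor of granule progenitors, and Slit2 were higher and 4 lower, among them Cxcr4, the chemokine receptor that holds progenitors at the pial surface (124, 123 and 165 against 203, 186 and 264 CPM, adjusted p = 2.10e-05). Besides Ntf3, only Sort1 and Kidins220 of the neurotrophin list reached the mean of 10 CPM needed for a test, and neither passed or had an unadjusted p under 0.05. The neurotrophin receptor genes Ntrk2 and Ntrk3 were below that mean and not tested. Ntrk2 stood at 5.50, 7.45 and 4.38 CPM against 1.67, 2.32 and 2.04 CPM, and the levels of Ntrk3 are not reported here.

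Of 16 genes tied to Group 3 and Group 4 medulloblastoma and the CBFA2T corepressors, 1 was higher, 4 lower and 11 did not pass. Otx2, a homeobox factor of the rhombic lip that is amplified in Group 3 medulloblastoma, stood at 122, 133 and 113 CPM against 43.1, 87.0 and 92.7 CPM (log2 difference 0.76, adjusted p = 0.0120); in cells thinned to 10000 UMIs the difference was 0.33 and did not pass (adjusted p = 0.345). The corepressor genes Cbfa2t2 (96.5, 83.7 and 85.2 against 120, 100 and 117 CPM, adjusted p = 0.0108) and Cbfa2t3 (190, 174 and 174 against 209, 208 and 208 CPM, adjusted p = 0.0326) were slightly lower. Neither passed without RL e14 replicate 2 (adjusted p = 0.117 and 0.195), nor did Cbfa2t3 without RL e14 replicate 1 (0.232). Their relative Runx1t1 was lower by 0.85 on the log2 scale (adjusted p = 0.00608) and did not pass without RL e14 replicate 2 (0.0698). Myc and Mycn did not pass.

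Markers of other cell types were low in both populations. The summed level of 7 microglia genes was 0.467 to 3.22 CPM in the Tlx3-positive and 0.665 to 2.55 CPM in the Tlx3-negative cells, and that of 5 endothelial genes 0.427 to 0.781 CPM against 1.84 to 3.23 CPM. The 6 red blood cell genes summed to 22 to 52.2 CPM against 19.8 to 51.5 CPM, and the 6 meningeal genes to 0.640 to 2.03 CPM against 2.10 to 2.16 CPM. The 4 roof plate and choroid plexus genes summed to 2.93 to 5.72 CPM against 3.41 to 8.31 CPM. Immediate early genes, which respond to cell dissociation, summed to 1911, 1247 and 1250 CPM against 1500, 1433 and 1671 CPM, and 2 of 7 tested, Fos and Dusp1, were lower; neither passed without RL e14 replicate 2 (adjusted p = 0.0612 and 0.125). The 10 GABAergic lineage genes summed to 9.03 to 18.1 CPM against 25.3 to 47.6 CPM. Of the defining markers, Kdr was at 0 in the Tlx3-positive cells of all 3 libraries, and C1qa, Csf1r, Cx3cr1, Cldn5, Pecam1, Col1a1, Alas2 and Ptf1a were at 0 or 1 UMI in each. Other markers had more UMIs there. The red blood cell genes Hba-a1 and Hbb-bs had 10, 16 and 46 and 11, 46 and 93. The GABAergic genes Gad1, Gad2, Slc32a1 and Pax2 had 0, 1 and 12, 7, 2 and 1, 4, 1 and 1, and 0, 0 and 4. Ttr had 0, 0 and 15, Folr1 1, 3 and 3, and Col3a1 0, 2 and 4. The oligodendrocyte genes Mbp and Pdgfra had 0, 6 and 4 and 1, 2 and 1. The part of these cell types in the results was not tested. Across the series, 6 cell barcodes occurred in more than 1 library.

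Within the gate, levels were also read by the number of Tlx3 UMIs in the cell, as a description with no test. In RL e14 replicate 1, Ntf3 stood at 6.36, 48.3, 109 and 237 CPM in cells with 0, 1, 2 to 9 and 10 or more Tlx3 UMIs (331, 24, 92 and 54 cells), and in RL e14 replicate 2 at 12.6, 18.3, 110 and 276 CPM (198, 20, 53 and 82 cells). Fgf8 stood at 0.226, 10.7, 46.9 and 75.3 CPM in the former and at 1.94, 4.12, 40.2 and 84.8 CPM in the latter. Both genes were highest in the cells with the most Tlx3. Pvalb ran the opposite way, with 854, 381, 152 and 57.8 CPM in RL e14 replicate 1 and 1131, 919, 240 and 118 CPM in RL e14 replicate 2.

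Gap43 did not follow Tlx3 to the top class: it stood at 491, 640, 1289 and 1301 CPM in RL e14 replicate 1 and at 453, 514, 1335 and 1223 CPM in RL e14 replicate 2. Atoh1 stood at 440, 456, 372 and 349 CPM and at 438, 375, 336 and 295 CPM. Cells with a single Tlx3 UMI were closer to the Tlx3-negative cells in RL e14 replicate 2, where Pvalb, Gap43 and Ntf3 lay near the level of cells with none, than in RL e13 replicate 2, where Pvalb was 822 CPM at 0, 285 CPM at 1 and 85.1 CPM at 2 to 9 Tlx3 UMIs (683, 33 and 40 cells). Median depth over these classes was 16076 to 17100 UMIs in RL e14 replicate 1 and 20309 to 23732 UMIs in RL e14 replicate 2. With members limited to 2 or more Tlx3 UMIs, 314 genes were higher and 292 lower than in Tlx3-negative cells.

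**Figure D3:**
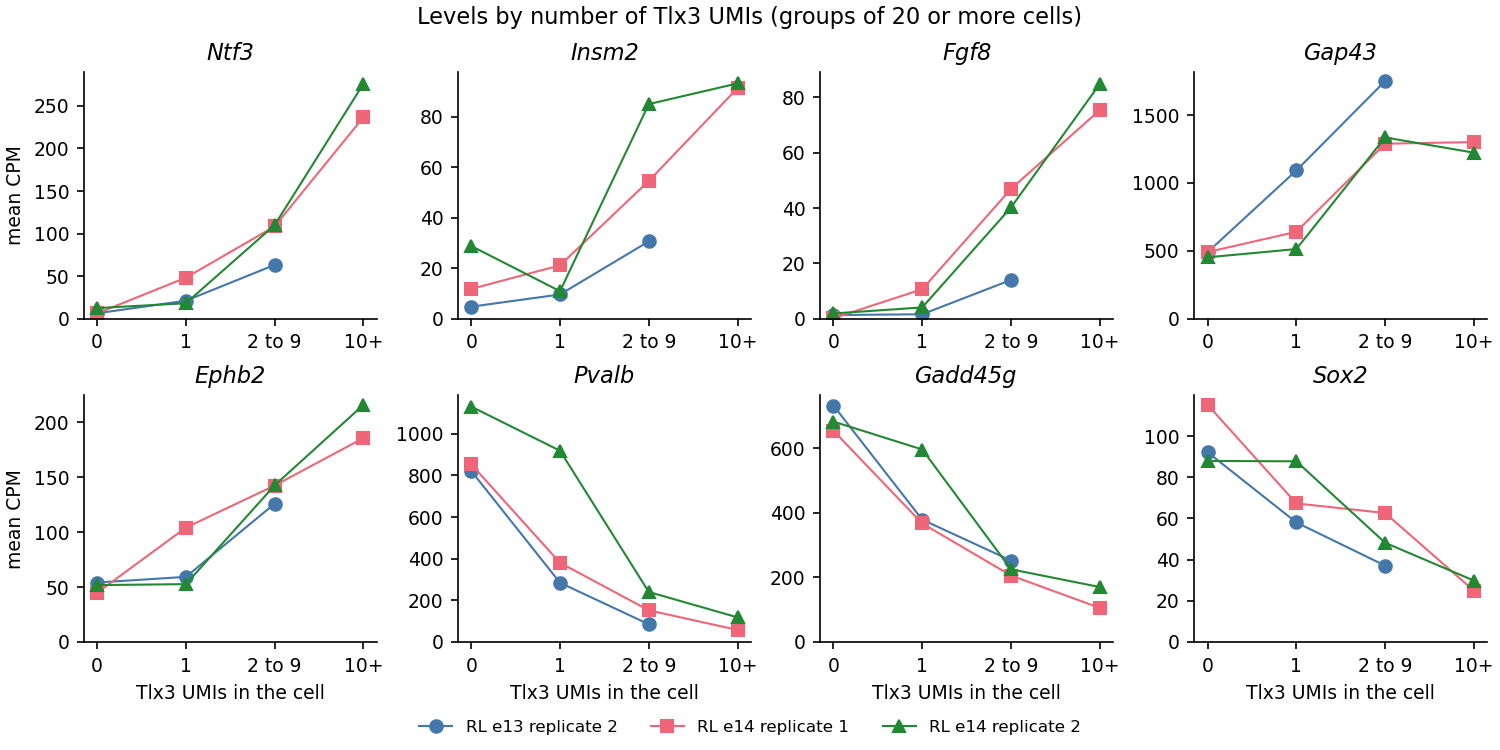
Mean level in CPM of 8 genes by the number of Tlx3 UMIs in the cell (0, 1, 2 to 9, 10 or more) among Atoh1 and Barhl1 cells without Eomes, 1 line per library, for groups of 20 or more cells. Ntf3, Insm2, Fgf8 and Ephb2 have their highest points at 10 or more Tlx3 UMIs in both RL e14 libraries, Gap43 levels off from 2 to 9, and Pvalb, Gadd45g and Sox2 have their lowest points at 10 or more.

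The members were then set beside the Eomes-positive cells of the same gate, of which 77 of 284, 81 of 182 and 51 of 115 also held a Tlx3 UMI (27.1%, 44.5% and 44.3%). Eomes stood at 175, 201 and 241 CPM in these cells, and Tlx3 at 40.0, 190 and 261 CPM against 153, 476 and 562 CPM in the Tlx3-positive cells without Eomes. Ntf3 stood at 3.66, 47.9 and 81.2 CPM, Insm2 at 6.45, 15.9 and 22.7 CPM and Efna3 at 25.2, 15.4 and 25.3 CPM in the Eomes-positive cells, each below the Tlx3-positive value of the same library. Atoh1 was 305, 266 and 229 CPM. Median depth of the Eomes-positive cells was 19289, 16085 and 20270 UMIs. This comparison uses the same Tlx3-positive cells as the one above, so values of both are given side by side.

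Of 8183 genes tested, 431 were higher in the Tlx3-positive than in the Eomes-positive cells (5.27%) and 660 lower (8.07%), 13.3% in all. Without RL e14 replicate 1, 286 were higher and 577 lower. Neuronal differentiation genes were lower: 13 of 15 tested, with none higher and a median log2 difference of -0.90 beside -0.0038 over all genes. Of the 13, Nefm reached the mean of 10 CPM needed for a test only here, not against Tlx3-negative cells. Mapt, the microtubule protein tau, stood at 27.2, 22.8 and 18.1 CPM in the Tlx3-positive and 103, 76.7 and 177 CPM in the Eomes-positive cells (log2 difference -2.09, adjusted p = 1.56e-05). Tubb3, a neuronal tubulin, was lower by 1.41 and Map1b by 0.91 on that scale. Gap43, at 2105, 1987 and 2422 CPM in the Eomes-positive cells, and Stmn2, at 1561, 1134 and 1341 CPM, were higher there than in the Tlx3-positive cells, which for both genes lay between the Tlx3-negative and the Eomes-positive cells in each library.

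Of 5 unipolar brush cell genes tested, Neurod4, Nnat, Plcb1 and Otx2 were lower in the Tlx3-positive cells and none higher, with all 5 at an unadjusted p under 0.05; Neurod4 and Plcb1 averaged under 10 CPM in the Tlx3-positive cells and were tested only through the Eomes-positive cells. Otx2 stood at 122, 133 and 113 CPM against 209, 345 and 379 CPM (log2 difference -1.26, adjusted p = 2.48e-05). Neurod1 stood at 77.1, 40.9 and 22.5 against 125, 115 and 93.3 CPM, and Pax6 at 372, 313 and 255 against 494, 552 and 545 CPM. For Neurod1, Otx2 and Pax6 the Tlx3-positive level again lay between those of the Tlx3-negative and Eomes-positive cells in each library. Slc17a6, the vesicular glutamate transporter of differentiating glutamatergic neurons, stood at 27.8, 10.5 and 8.78 against 82.9, 73.9 and 79.1 CPM (log2 difference -2.13, adjusted p = 9.35e-06). Of 16 early differentiation factors tested besides Insm2, 13 were lower and Hes6 was higher. Of the 13, Neurod4 and Scrt2 reached the mean of 10 CPM needed for a test only here, not against Tlx3-negative cells. Of 9 cell cycle exit genes 6 were lower and none higher.

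Fst and Pvalb had the largest positive differences from the Eomes-positive cells among the genes named. Fst stood at 138, 121 and 123 against 55.9, 29.1 and 16.6 CPM (log2 difference 1.90, SE 0.17, adjusted p = 1.38e-05). Pvalb stood at 171, 154 and 263 against 66.8, 29.9 and 66.1 CPM (log2 difference 1.80, adjusted p = 3.03e-06). Ccnd1 (1.03), Nes (0.94) and Cxcr4 (0.72) were also higher on the log2 scale, and Sox2 by 0.57, which did not pass without RL e14 replicate 1 (adjusted p = 0.0876). Each of these genes was lower in Tlx3-positive than in Tlx3-negative cells, so that the Tlx3-positive level was the middle one of the 3 populations.

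**Figure D4:**
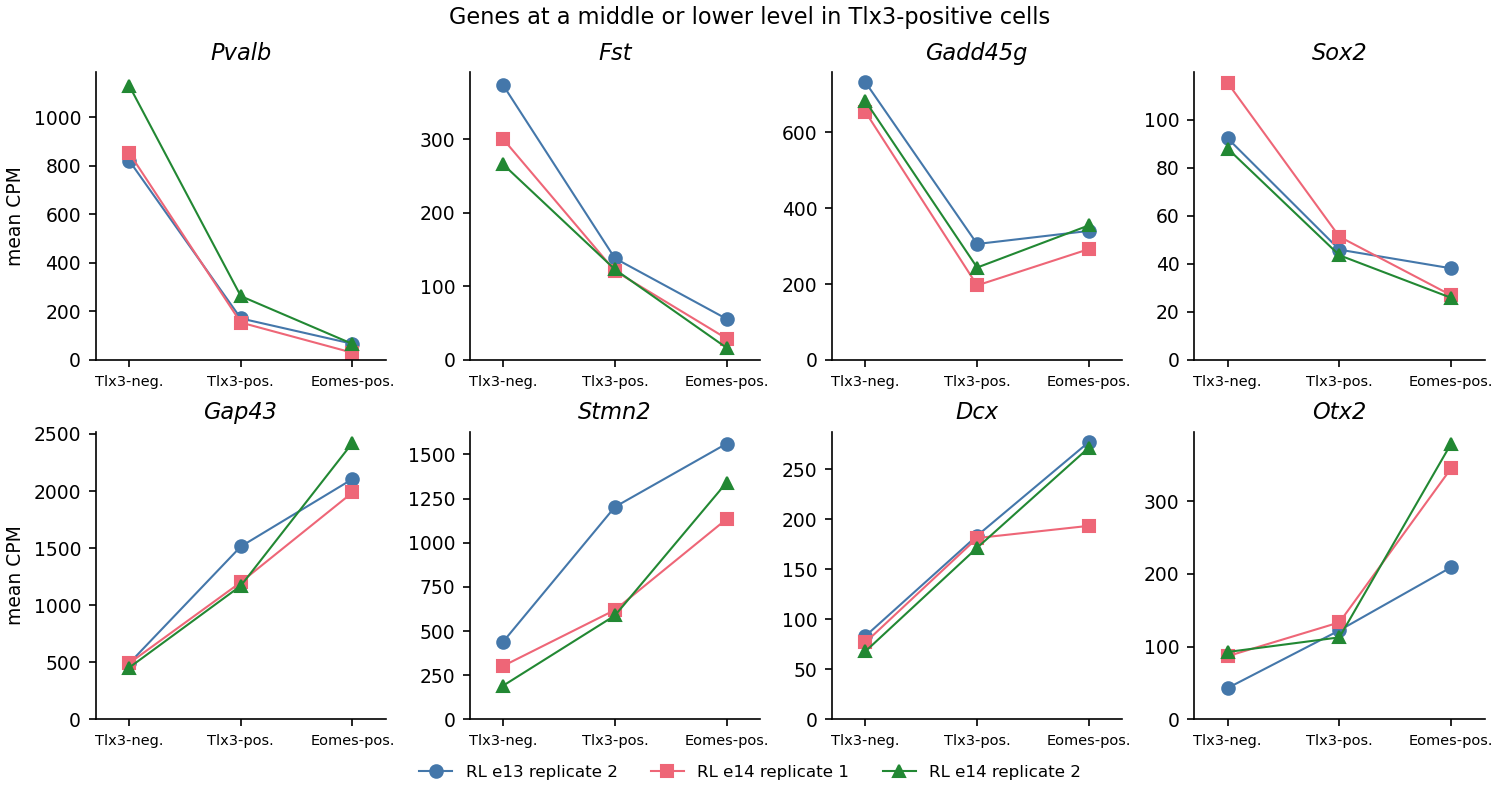
Mean level in CPM of 8 genes in Tlx3-negative, Tlx3-positive and Eomes-positive cells, 1 line for each of 3 libraries. Pvalb, Fst and Sox2 descend and Gap43, Stmn2, Dcx and Otx2 ascend from left to right in every library, while Gadd45g has its lowest point in the Tlx3-positive cells.

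Fgf8, Ephb2, Efna4 and Sp5 were highest in the Tlx3-positive cells of all 3 libraries. Fgf8 stood at 4.12, 21.8 and 42.5 CPM in the Eomes-positive cells, below the 11.5, 50.8 and 59.1 CPM of the Tlx3-positive cells (log2 difference 0.78, adjusted p = 0.00261). Ephb2, at 76.2, 84.0 and 111 CPM in the Eomes-positive cells, was lower there by 0.60 (adjusted p = 0.000524) and Efna4 by 0.73 (0.000241). Sp5, a target and modulator of Wnt signalling, stood at 506, 640 and 673 CPM in the Tlx3-positive, 397, 428 and 442 CPM in the Tlx3-negative and 368, 501 and 439 CPM in the Eomes-positive cells. It passed both tests, with log2 differences of 0.51 and 0.47.

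Etv5, a transcription factor that fibroblast growth factor signalling induces, stood at 35.1, 93.8 and 91.2 CPM against 19.2, 20.5 and 30.8 CPM in the Eomes-positive cells (log2 difference 1.37, adjusted p = 0.000147) and did not pass against the Tlx3-negative cells (49.1, 80.3 and 85.9 CPM, log2 difference -0.046, SE 0.11). Myc, a growth-promoting transcription factor amplified in Group 3 medulloblastoma, stood at 19.2, 26.8 and 43.5 against 5.13, 5.39 and 14.3 CPM (log2 difference 1.40, adjusted p = 5.52e-05), and passed the filter only through the Tlx3-positive cells. Cbfa2t2 and Cbfa2t3 were higher than in Eomes-positive cells by 0.37 and 0.30 and neither passed without RL e14 replicate 1 (adjusted p = 0.148 and 0.0996). Runx1t1 was lower by 1.32, as it was against the Tlx3-negative cells by 0.85. Of 15 S phase genes 1, Mcm6, was higher, and of 15 G2 and M phase genes Aurka and Ube2c were lower; neither of the latter passed without RL e13 replicate 2 (adjusted p = 0.0951 and 0.0588) or without RL e14 replicate 1 (0.104 and 0.102).

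**Figure D5:**
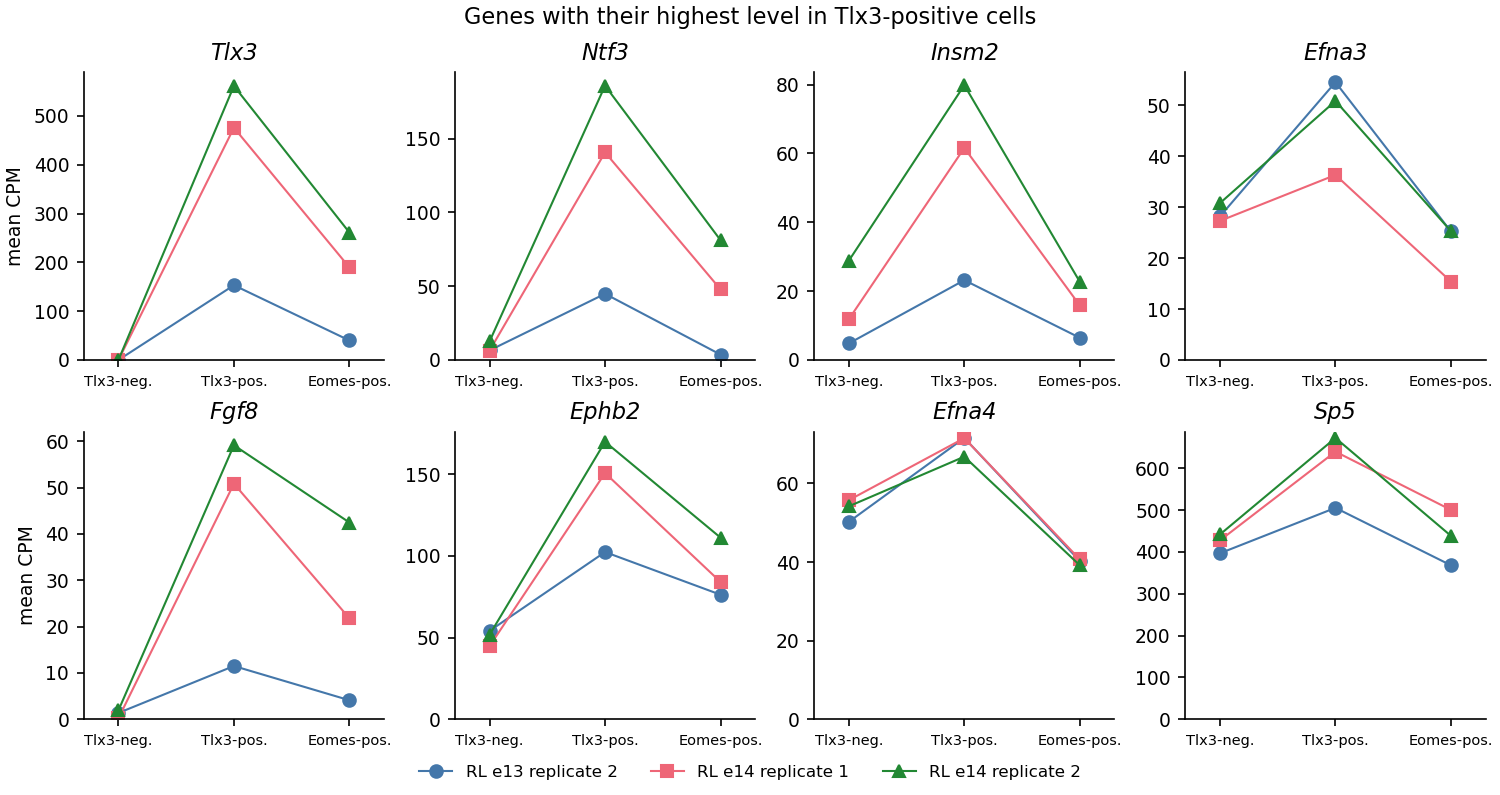
Mean level in CPM of Tlx3, Ntf3, Insm2, Efna3, Fgf8, Ephb2, Efna4 and Sp5 in Tlx3-negative, Tlx3-positive and Eomes-positive cells, 1 line for each of 3 libraries. Every line peaks in the Tlx3-positive cells; Tlx3, Ntf3, Insm2 and Efna3 were used to choose or name the population, and for Fgf8 the peak is 11.5 CPM in RL e13 replicate 2 and 59.1 CPM in RL e14 replicate 2.

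Between ages, only values can be given, since RL e13 replicate 2 was the only e13 library with enough members. In its Tlx3-positive cells Tlx3, Ntf3, Insm2 and Fgf8 stood below both e14 libraries (153 against 476 and 562 CPM for Tlx3). Stmn2 (1203 against 619 and 588 CPM), Neurod1 (77.1 against 40.9 and 22.5 CPM) and Gap43 (1514 against 1201 and 1170 CPM) stood above both. The Tlx3-negative cells of that library were also above the e14 libraries in Stmn2 (440 against 303 and 191 CPM) and Neurod1 (20.2 against 12.6 and 12.5 CPM). Age and library cannot be told apart here.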

How the data were processed

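The deposited table (15971 genes, 6987 cells) holds natural log values: 1 plus the UMIs of a gene per 10000 UMIs of its cell, logged. Another deposited file gives the library of each cell, and 1 batch was matched to the e16 library because it was the one left. The unit of the values follows from the numbers themselves. Back-transformed values (29540669 above 0) are whole UMIs, to within 0.01, once divided by the smallest of the cell. 10x Chromium 3′ kits are named per the labels' protocols, and Cell Ranger and mm10 per the submitters' processing notes. Filtering and doublet removal: not given in the sources used here. Each cell had 2106 to 6549 genes, and no doublet caller was run.

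Values were back-transformed, scaled to 1000000 per cell and averaged over the cells of a population and library with 20 or more cells (CPM). Median depth per library was 15855 to 19970 UMIs in the RL libraries. The fit was limma 3.58.1 in R 4.3.3, with a trended prior and the library as a block, for genes averaging at least 10 CPM; log2(CPM + 5) understates changes of low genes. P-values were adjusted by Benjamini and Hochberg's method across every gene in a fit. Atoh1, Barhl1, Tlx3, Eomes, Ntf3, Insm2 and Efna3 were kept out of the fit against Tlx3-negative cells and are described without a test; Tlx3 and Eomes were kept out of that against Eomes-positive cells, whose counts include the other 5 where they passed. Members, the 30 gene lists and tests were chosen with earlier results of these data known. Genes were named by rule: the 10 highest and 10 lowest called differences with 1 direction in all 3 libraries and 20 CPM or more, up to 4 called members of each list, and a fixed set; other list members are named where a count is small, and some results are not reported here. On simulated profiles of the comparison with Tlx3-negative cells (8092 genes), all of 61 genes changed by 1 on the log2 scale and 43.8% of those changed by 0.5 were recovered. The simulation gave every gene the same dispersion and each change the same size in every library, so recovery in the real profiles may differ. Alternatives changed the pseudocount, the filters, the scaling (TMM), the block, the depth, the gate and the libraries used.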

Additional observations from a re-analysis of the deposited data

Results flagged for a closer look

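The EomesCreER e16 library was not part of the rule or of any comparison, and the same gate was applied to it. Of its 28 Atoh1 and Barhl1 cells without Eomes, 15 held a Tlx3 UMI (53.6%, 95% Wilson interval 35.8 to 70.5%), against 43.9% in RL e14 replicate 2, the highest RL library. At 2 or more Tlx3 UMIs the share was 50.0%, and in cells thinned to 10000 UMIs 40.9%. Without the 5% of cells with the most UMIs it was 36.8% (7 of 19), below the 43.3% of RL e14 replicate 2. Its 8 Sox2 cells without Atoh1 and Barhl1 held 0 Tlx3 UMIs, too few cells for a background share. The 15 cells held a median of 17 Tlx3 UMIs and at most 39. Their median depth was 18798 UMIs, against 14716 UMIs in the 13 Tlx3-negative cells and 10346 UMIs in the whole library. The part of depth in the values of these cells was not tested. A UMI of Ntf3 was found in 14 of them and in 0 of the 13 Tlx3-negative cells, one of Insm2 in 8 against 1, and one of Efna3 in 5 against 1. Fgf8 stood at 104 CPM (32 UMIs) against 0 UMIs, and Ephb2 at 228 against 82.7 CPM. Gap43 went the other way from the RL libraries, with 1633 CPM in Tlx3-positive and 3679 CPM in Tlx3-negative cells, as did Stmn2 (880 against 1671 CPM), Neurod1 (43.0 against 180 CPM) and Otx2 (282 against 382 CPM). These are values of 1 library with few cells, and no difference was tested.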

How the results depend on the processing

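In both comparisons, removing the library block lowered the counts most: 68 genes higher and 83 lower than in Tlx3-negative cells (330 and 314 with it), and 33 and 104 against Eomes-positive cells (431 and 660 with it). Thinning cells to 10000 UMIs gave 194 and 163, and 236 and 389. Restricting to cells without Mki67 and Top2a UMIs left 278 genes higher than in Eomes-positive cells. Leaving out 1 library gave 181 to 336 higher and 178 to 289 lower genes against Tlx3-negative cells, and 286 to 456 and 577 to 694 against Eomes-positive cells. The causes were not tested. Of the genes called higher and lower than in Tlx3-negative cells, 305 and 314 were also called with TMM scaling, and 324 and 303 with comparison cells weighted by depth.

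Of 72 genes named against Tlx3-negative cells, 38 left their side of the threshold under at least 1 alternative, 18 of them under one other than the missing block, and none reversed. Against Eomes-positive cells 56 of 85 did, 28 of them under another alternative, and Id2 reversed in cells without Mki67 and Top2a (log2 difference 0.027, adjusted p = 0.926). The share of Tlx3-positive cells was 27.3 to 38.0 points higher at e14 under every alternative, and 28.0 to 38.0 points with 1 library left out.

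The planned fit of e14 against e13 within Tlx3-positive cells was not run, by title or by age tag, because 1 e13 library at most had 10 or more members. Libraries of e13 and e14 were not paired, since 1 RL e14 title carries no number and no label ties an e13 library to an e14 library. The comparison rests on 3 libraries. A cell with no Tlx3 UMI at this depth is not shown to lack Tlx3 RNA.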

Other observations

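The cerebellar nuclei list gave no higher call against Tlx3-negative cells. Of 6 genes tested, Meis2 and Irx5 were lower and none higher, with 3 at an unadjusted p under 0.05. Meis2, a homeobox factor of the nuclear lineage, stood at 17.4, 12.8 and 7.93 CPM in the Tlx3-positive and 45.7, 35.6 and 13.9 CPM in the Tlx3-negative cells of RL e13 replicate 2, RL e14 replicate 1 and RL e14 replicate 2 (log2 difference -0.97, limma, adjusted p = 0.00152). It did not pass in cells without Mki67 and Top2a UMIs (adjusted p = 0.0735). Meis2 was also lower than in the Eomes-positive cells (39.8, 22.5 and 16.4 CPM, log2 difference -0.79, adjusted p = 0.0029), so that the Tlx3-positive cells had the lowest level of the 3 populations in each library. Pbx3, a TALE homeobox factor, stood at 93.1, 70.6 and 61.7 CPM against 152, 132 and 121 CPM in Tlx3-negative cells (log2 difference -0.82, adjusted p = 2.29e-05).

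Dapl1 and Cyp26b1 were among the 10 highest and the 10 lowest log2 differences from Tlx3-negative cells. Dapl1 stood at 33.8, 41.9 and 31.5 CPM against 4.22, 3.33 and 4.65 CPM in Tlx3-negative cells (log2 difference 2.16, adjusted p = 4.07e-06; tested only through the Tlx3-positive cells, since the others averaged 4.07 CPM) and did not pass against Eomes-positive cells (28.1, 38.8 and 45.9 CPM, adjusted p = 0.862). Cyp26b1, which degrades retinoic acid, stood at 4.10, 6.01 and 6.29 CPM in the Tlx3-positive and 44.2, 19.7 and 36.8 CPM in the Tlx3-negative cells (log2 difference -1.83, adjusted p = 0.000163), and was tested only through the latter.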
